A study of Mus musculus with 104 samples.

Results

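Steroid hormone receptors are nuclear receptors that act as transcription factors once bound by a steroid. The set described here holds 5 of them, taken by name from the table of reads per RefSeq gene: Nr3c1, the glucocorticoid receptor; Nr3c2, the mineralocorticoid receptor; Pgr, the progesterone receptor; and Esr1 and Esr2, the oestrogen receptors alpha and beta. They are 5 of 24060 genes in that table, and all 5 passed the filter on low counts that kept 15723 genes. RNA came from dissected cerebral cortex of C57BL/6 mice, all wild type and 6 months old. Their 13 lines were named Zswim6, Tbc1d8, Rgs9, Rasgef1a, Ppp1ca, Pcdh20, Morf4l1, Kdm3b, Hrk, Gsg1l, Ece2, Dach1 and Arpp19. Each line gave 8 libraries, 4 from females and 4 from males, for 52 of each sex in all. Since no mouse carried a mutation by its label, the lines are sets of controls. The labels tag these groups as batches, and a line therefore cannot be told apart from a batch.

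Unbound glucocorticoid, mineralocorticoid and progesterone receptors are held by heat shock protein chaperones, and the glucocorticoid receptor moves to the nucleus on binding its hormone. In the brain the mineralocorticoid receptor binds corticosterone with higher affinity than the glucocorticoid receptor does, and both serve the stress response. Oestrogen receptor alpha is best known from the hypothalamus and amygdala, where it controls reproductive behaviour, and oestrogen induces the progesterone receptor in those regions.

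Libraries held 3.39 to 33.5 M RefSeq reads, with a median of 28.4 M, and the second lowest held 23.9 M. The 1 shallow library was Kdm3b female 22. In 3 libraries (Rasgef1a female 39, Rasgef1a male 40 and Rgs9 female 43) reads of sex-linked genes went against the labelled sex. In Rasgef1a male 40 and Rgs9 female 43 this held for Xist and for Y-linked genes. In Rasgef1a female 39 it held for Xist alone, with 2 Xist reads and 0 reads of Y-linked genes. The sex tests of the receptors and of the pathway lists given below were also run without these 3 libraries. Those of cell type markers were not. Markers of cortical excitatory neurons summed to 6477 to 7863 CPM (read counts scaled to library size, with TMM factors) in every library. In that respect the libraries matched the labelled tissue. Hippocampal markers summed to 130 to 192 CPM and striatal markers to 226 to 334 CPM, and whether neighbouring tissue was included was not tested. Of the 11 hypothalamic and amygdalar markers, 3 passed the filter, and they summed to 0.514 to 1.78 CPM. The choroid plexus list reached 307 CPM in 1 male library and had a median of 2.49 CPM in males.

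Positions of the genes are on GRCm38, from GENCODE vM21. Nr3c2 is at chr8:76899442-77245012 on the plus strand and Pgr at chr9:8899833-8968611 on the plus strand. Esr1 is at chr10:4611593-5005614 on the plus strand and Esr2 at chr12:76120419-76177259 on the minus strand. Sequences upstream of a RefSeq transcription start are shown for 4 receptors whose RNA levels ranged from about 8 FPKM to under 0.1 FPKM. They are from the RefSeq promoter table on GRCm38.p6, read 5′ to 3′ along the gene's strand, and stop before any base that GENCODE annotates as an exon of that gene. The Nr3c2 and Esr1 starts used lie inside the annotated spans of those genes, not at their outer ends. Capitals mark exact matches, on either strand, to 4 motifs. The letters searched were GGGCGG for the GC box and TATAAA for the TATA box. They were CCAAT for the box of that name and CACGTG for the E-box. No match shown overlaps another. The stretches are chr8:76902080-76902287, chr9:8899583-8899832, chr10:4709908-4710154 and chr12:76177260-76177509, in the order printed.
Nr3c2: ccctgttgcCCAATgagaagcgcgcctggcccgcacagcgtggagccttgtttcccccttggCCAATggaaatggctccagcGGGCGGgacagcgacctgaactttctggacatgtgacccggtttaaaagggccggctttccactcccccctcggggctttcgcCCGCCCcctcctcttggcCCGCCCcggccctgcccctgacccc
Pgr: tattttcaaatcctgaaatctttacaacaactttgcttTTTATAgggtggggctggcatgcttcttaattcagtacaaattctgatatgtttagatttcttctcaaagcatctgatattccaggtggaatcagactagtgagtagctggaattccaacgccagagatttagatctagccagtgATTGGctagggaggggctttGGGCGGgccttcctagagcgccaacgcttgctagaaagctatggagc
Esr1: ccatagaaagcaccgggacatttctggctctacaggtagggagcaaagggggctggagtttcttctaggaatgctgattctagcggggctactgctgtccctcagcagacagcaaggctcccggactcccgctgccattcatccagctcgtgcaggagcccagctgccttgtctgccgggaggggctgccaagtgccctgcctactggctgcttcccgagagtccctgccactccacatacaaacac
Esr2: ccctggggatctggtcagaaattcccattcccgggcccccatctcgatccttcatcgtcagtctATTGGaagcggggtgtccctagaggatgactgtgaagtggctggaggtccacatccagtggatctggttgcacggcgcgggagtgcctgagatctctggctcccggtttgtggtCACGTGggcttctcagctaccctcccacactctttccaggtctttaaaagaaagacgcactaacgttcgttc

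The Nr3c2 stretch held 3 GC boxes and 2 CCAAT boxes. The Pgr stretch held 1 GC box, 1 CCAAT box and 1 TATA box. The Esr1 stretch held none of these motifs, and the Esr2 stretch held 1 CCAAT box and 1 E-box. Over 32817 RefSeq promoters, the 250 bases upstream of the start held a GC box in 32.7%, a CCAAT box in 33.8%, a TATA box in 12.4% and the E-box in 6.02%. Over the full 250 bases, GC content was 68.4% for Nr3c2, 43.6% for Pgr, 59.6% for this Esr1 start and 56.4% for Esr2, against a median of 52.4% over all promoters. A half-site bound by oestrogen receptors (AGGTCA, found in 14% of promoters) and one bound by the other 3 receptors (TGTTCT, found in 16.1%) were searched on both strands. Neither was present in these windows, nor in the window of a second Esr1 start.

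The receptors fell into a high and a low class (plot of receptor levels by library). On the authors' RefSeq FPKM scale, which corrects for gene length, Nr3c1, which lies at chr18:39410545-39519421 on the minus strand, had the highest level at 25.5 ± 1.40 (SD over 52 females and 52 males). Its libraries ran from 21.8 to 29.2 with a median of 25.6. Nr3c2 was at 8.30 ± 0.586 FPKM (range 6.81 to 9.54) and Pgr at 6.51 ± 0.452 FPKM (range 5.03 to 7.65). The ranges of Nr3c2 and Pgr overlapped between libraries, yet Nr3c2 was above Pgr within all but 1 library. Nr3c1 was above Nr3c2 in every library, with a ratio of means of 3.07.

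The oestrogen receptors were far lower. Esr1 stood at 0.235 ± 0.063 FPKM (range 0.102 to 0.41) and Esr2 at 0.062 ± 0.031 FPKM (range 0 to 0.129). Pgr exceeded Esr1 in every library, and Esr1 exceeded Esr2 in all but 1. Behind these values were 6 to 47 reads per library for Esr1 and 0 to 13 for Esr2. Esr2 had 0 reads in 2 libraries. In Hrk male 19 a count of 0 allows up to 3 reads, or 0.106 CPM, and in the shallow Kdm3b female 22 it allows 0.885 CPM, which is above the Esr2 value of every library. Such limits cover counting error only.

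**Figure D1:**
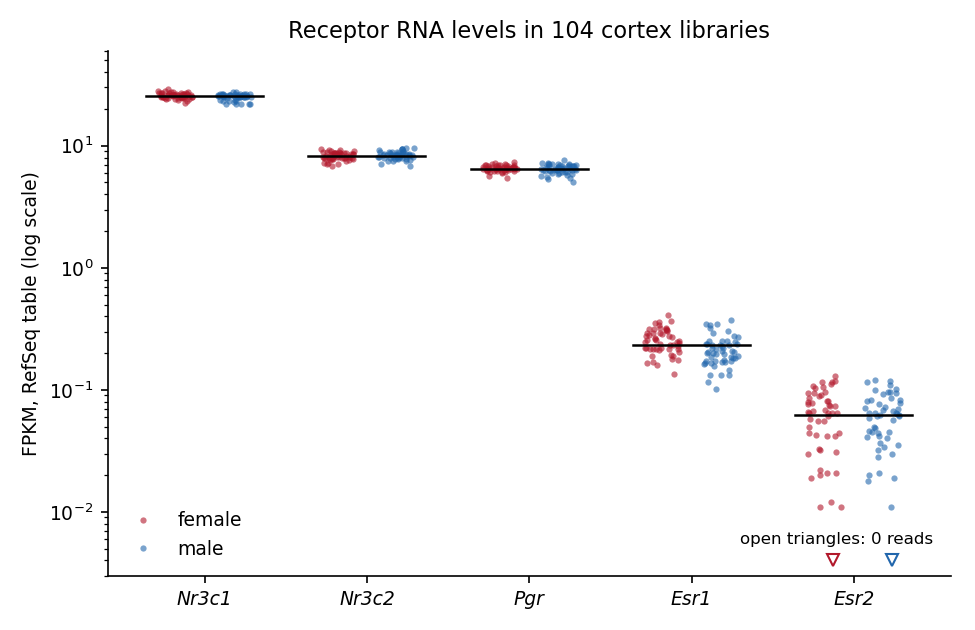
FPKM of each receptor (log axis) in the RefSeq table, with a point for each library (52 females and 52 males) coloured by sex and a line at the mean. Nr3c1, Nr3c2 and Pgr lie between 5.03 and 29.2 FPKM, Esr1 lies between 0.102 and 0.41, and open triangles mark the 2 libraries with 0 Esr2 reads.

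The size of the gap depended on the gene model. In the authors' Ensembl FPKM table Pgr was at 4.98 ± 0.352 and Esr1 at 0.107 ± 0.025 (SD). The ratio of their means was 46.4 there and 27.7 in the RefSeq table. Esr1 exceeded Esr2 in 97 libraries on the Ensembl scale, with a ratio of means of 1.90 against 3.77. RefSeq reads amounted to 62.4% of Ensembl reads for Esr1 and 73.6% for Nr3c2, but to 95.4% for Pgr, 99.7% for Nr3c1 and 100% for Esr2. Among 46 nuclear receptor genes ordered by mean RefSeq FPKM, Nr3c1 was at place 7, Nr3c2 at 18, Pgr at 20, Esr1 at 35 and Esr2 at 38. Thra, a thyroid hormone receptor, came first at 189 ± 13.8 FPKM.

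Spread over libraries was small for the 3 abundant receptors. The coefficient of variation of CPM was 5.72% for Nr3c1, 6.91% for Nr3c2 and 7.04% for Pgr. It was 26.9% for Esr1 and 49.5% for Esr2. Counting error alone would give 1.52%, 3.33% and 2.88% for the first 3, and 19.7% and 40.7% for Esr1 and Esr2. Genes of like level had median coefficients of 5%, 6.25% and 5.82% (for Nr3c1, Nr3c2 and Pgr), and 25.95% and 49.4% (for Esr1 and Esr2). From the lowest to the highest library, CPM rose 1.35-fold for Nr3c1, 1.39-fold for Nr3c2, 1.55-fold for Pgr and 3.98-fold for Esr1. Most of each receptor's sum of squares of log2 CPM, from 61.7% for Pgr to 75.7% for Nr3c2, lay among mice of the same line and sex. The median over all genes tested was 72.4%.

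Female mice pass through the oestrous cycle, and the spread among females was therefore set against that among males. For Pgr the SD of log2 CPM within line and sex was 0.072 in females and 0.112 in males (two-sided permutation test, p = 0.0218, adjusted p over the 5 receptors = 0.109). For Esr1 it was 0.324 in females and 0.381 in males (permutation, adjusted p = 0.69). Nr3c1 had SDs of 0.075 and 0.078, Nr3c2 of 0.096 and 0.105, and Esr2 of 0.627 and 0.594 (permutation, adjusted p = 0.815 for each). None of the 5 differences passed.

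Esr1 was the 1 receptor of 5 called for a difference between the sexes, and it was higher in females. In the 52 females Esr1 ran from 0.589 to 1.77 CPM with a median of 1.09, and in the 52 males from 0.445 to 1.595 CPM with a median of 0.88. The ranges overlapped widely, but 43 of 52 females lay above the male median and 9 of 52 males above the female median. Means were 1.102 ± 0.256 CPM in females and 0.925 ± 0.261 CPM in males (SD, n = 52 each). The fitted log2 difference, female minus male, was 0.24 ± 0.07 (SE; 95% interval 0.10 to 0.37), a 1.18-fold difference (edgeR quasi-likelihood test, Benjamini-Hochberg adjusted p = 0.0178). The difference of mean log2 CPM, the measure behind all counts of lines given here, was above 0 in 13 of 13 lines. In Gsg1l it was near 0, and there the means of CPM itself were 1.185 in females and 1.193 in males. Of all genes tested, 4.07% were called higher and 4.5% lower in females.

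**Figure D2:**
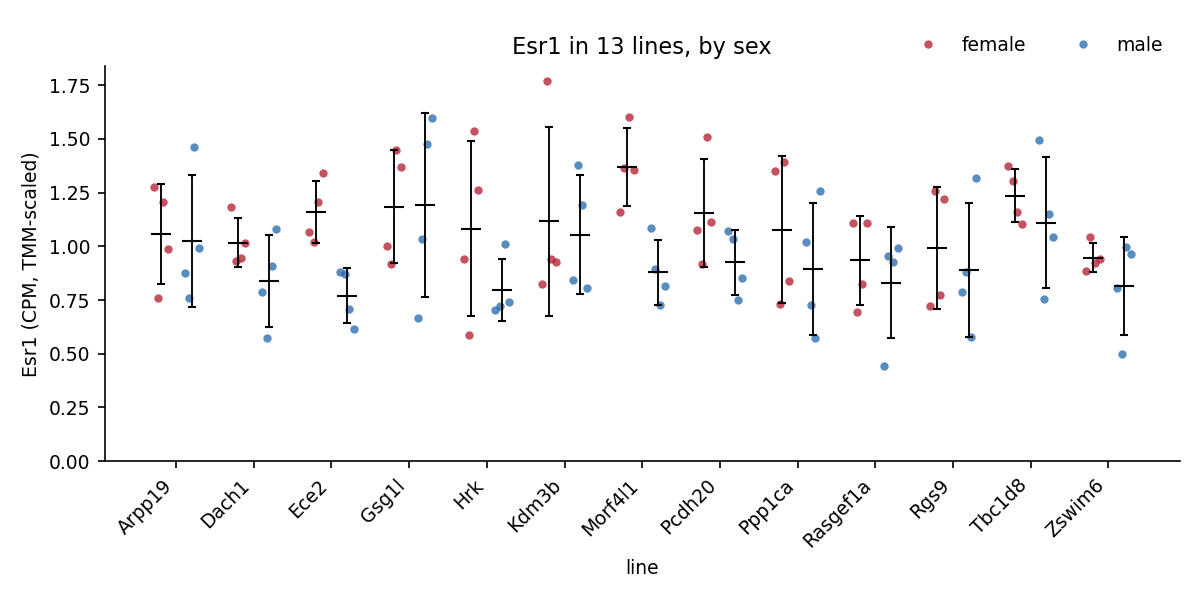
Esr1 in CPM (vertical axis, from 0) for each line, with a point per library, 4 females (red) and 4 males (blue) a line, and bars for mean ± SD. Females and males did not overlap in Ece2 and Morf4l1, and their means lay at 1.185 and 1.193 in Gsg1l.

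The difference was not even across lines in size. The female minus male difference of mean log2 CPM ran from 0.037 in Gsg1l to 0.61 in Morf4l1. In Morf4l1 the females had 1.16, 1.37, 1.60 and 1.36 CPM and the males 1.08, 0.893, 0.726 and 0.813 CPM. In Ece2 the females had 1.067, 1.022, 1.204 and 1.343 CPM and the males 0.88, 0.87, 0.709 and 0.617 CPM. In these lines, singled out after their values were seen, all 4 females were above all 4 males. Without Morf4l1 the log2 difference was 0.20 (edgeR adjusted p = 0.0686) and without Ece2 it was 0.21 (adjusted p = 0.059), and the call was thus lost without either line. The test of whether the sex difference of Esr1 varied by line gave F = 0.776 (edgeR, unadjusted p = 0.673).

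The Esr1 difference was 0.26 without the 3 libraries whose sex-linked reads go against the label (edgeR adjusted p = 0.0116) and 0.25 on plate 1 alone (adjusted p = 0.0244). With scores of 5 lists as covariates (hippocampal, striatal, oligodendrocyte, choroid plexus and erythroid) it was 0.22 (adjusted p = 0.0381). In the Ensembl counts, which assign Esr1 more reads, it was 0.26 (adjusted p = 0.00231). Some cell type markers were called by sex too, with all libraries kept as labelled. Of 8 oligodendrocyte markers 2 were called higher in females, as were 2 of 7 markers of oligodendrocyte precursors, against 4.07% of all genes. Their summed medians were 2225 and 236 CPM in females and 2113 and 226 CPM in males. The 3 tested hypothalamic and amygdalar markers had summed medians of 1.116 CPM in females and 1.192 CPM in males, with 1 called lower in females. Of these 3 lists only the oligodendrocyte one was among the covariates, and the part of each in the Esr1 difference was not tested by itself. In bulk tissue, fewer cells of a type and less RNA per cell cannot be told apart.

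For the other receptors the sexes were closer. Nr3c1 had 163 ± 8.58 CPM in females and 159 ± 9.45 CPM in males (SD, n = 52 each). Its log2 difference was 0.038 ± 0.015 (SE; 95% interval 0.009 to 0.067), above 0 in 9 of 13 lines. It missed the threshold only after adjustment (edgeR unadjusted p = 0.0119, adjusted p = 0.0938). Without the line Dach1 this difference was 0.047 and passed (adjusted p = 0.0385). Pgr had 45.1 ± 2.48 CPM in females and 44.6 ± 3.72 CPM in males, and its difference had a 95% interval of -0.019 to 0.058. Nr3c2 was at 33.6 ± 2.31 CPM in females and 34.2 ± 2.37 CPM in males, with an interval of -0.063 to 0.011. For Esr2 the interval was wide, from -0.21 to 0.34, at 0.213 ± 0.11 CPM in females and 0.206 ± 0.098 CPM in males. At its depth a difference of the size seen for Esr1 was not detectable in Esr2.

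No receptor was called for a sex difference that varied by line in edgeR (0 of 5), and 0.0382% of all genes were. Without adjustment 597 of 15723 genes tested had a p under 0.05, and 1 of the 5 receptors did. That was Pgr (F = 2.44, unadjusted p = 0.009, adjusted p = 1), whose difference of mean log2 CPM, female minus male, ran from -0.14 in Rgs9 to 0.19 in Gsg1l. In Gsg1l the means were 45.8 ± 1.48 CPM in females and 40.2 ± 4.71 CPM in males (SD, n = 4 each), and in Rgs9 they were 42.5 ± 3.70 and 46.8 ± 2.46 CPM. One of the Rgs9 females is among the libraries against their label.

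Between lines, receptor levels lay close together. The F-test over 13 lines called 0 of 5 receptors, against 9.61% of all genes tested. Nr3c1 came nearest (F = 2.20, edgeR unadjusted p = 0.0173, adjusted p = 0.115), and it was the 1 receptor with an unadjusted p under 0.05. Of all genes, 3702 of 15723 had an unadjusted p under 0.05 in this F-test. Adjusted p was 0.424 for Nr3c2, 0.478 for Esr1, 0.406 for Esr2 and 0.438 for Pgr. limma-voom called 0 of 5 as well, and DESeq2 0 of the 4 receptors for which it gave an adjusted p (0.0697 for Nr3c1, none given for Esr2). The highest line mean exceeded the lowest by 10.6% for Nr3c1, 10.1% for Nr3c2 and 8.1% for Pgr, by 34.8% for Esr1 and by 112.1% for Esr2. For all 5 receptors, the largest step between neighbours in the order of line means was smaller than the median SD within a line. For Nr3c1 that step was 6.31 CPM against an SD of 8.28 CPM. That SD is of single mice, not the error of a line mean, so the step is no test of line differences.

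Nr3c1 was lower in Tbc1d8 than in the other lines, the 1 such call among the receptors when each line was set against the mean of the other 12. The Tbc1d8 females had 164.3, 142.9, 152.9 and 163.8 CPM, and the males 140.2, 148.1, 142.5 and 148.3 CPM. The other 96 libraries ran from 136.2 to 184.5 CPM with a median of 162.5. Thus 6 of 8 Tbc1d8 libraries lay below that median and all 8 lay within the range of the others. The mean was 150.4 ± 9.34 CPM (SD, n = 8) against 162.2 ± 8.65 CPM (n = 96). The log2 difference was -0.11 ± 0.03 (SE), a ratio of 0.927 (edgeR adjusted p = 0.00397). Calls were common in Tbc1d8, where 12.4% of all genes tested were called against the other lines and 6.79% were called lower.

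**Figure D3:**
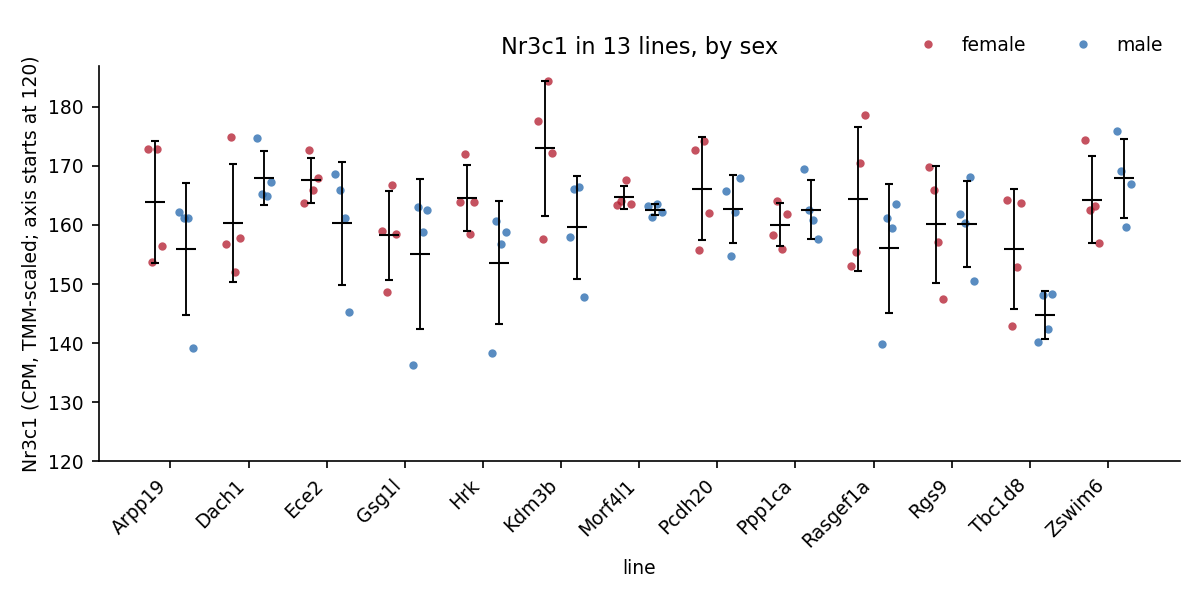
Nr3c1 in CPM (vertical axis, not starting at 0) for each line, with a point per library and bars for mean ± SD over 4 mice. The 4 Tbc1d8 males lie between 140.2 and 148.3 and the 4 females between 142.9 and 164.3.

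The 2 Tbc1d8 males on plate 2, at 140.2 and 142.5 CPM, were the lowest of the line. On plate 1 alone the 6 remaining libraries had 153.4 ± 8.83 CPM against 162.6 ± 8.41 CPM in 90 others, and the difference of -0.09 (log2) missed the threshold (edgeR adjusted p = 0.0617). Among the 8 libraries of plate 2, the 6 of other lines had 155.0 ± 9.90 CPM. With plate as a term the difference was -0.09 (adjusted p = 0.0163). In males alone it was -0.15 (adjusted p = 0.0264) and in females alone -0.07 (adjusted p = 0.373). The difference between those was not tested for this line by itself. Hippocampal markers summed to a median of 171 CPM in Tbc1d8 and 148 CPM in the others (range 148 to 181 against 130 to 192), with 1 of 9 called higher. Cortical excitatory markers summed to a median of 7297 CPM in Tbc1d8 and 6919 CPM in the others, with 2 of 7 called higher and 1 lower. Oligodendrocyte precursor markers had 241 and 231 CPM, with 2 of 7 higher, and oligodendrocyte markers 1995 and 2173 CPM, with 0 of 8 called in edgeR. Of 15723 genes tested, 890 were called higher in Tbc1d8 and 1067 lower. The part of these markers, taken 1 list at a time, in the Nr3c1 difference was not tested. With the same 5 list scores as for Esr1 as covariates, the Nr3c1 difference was -0.09 (edgeR adjusted p = 0.0403). Those scores include the hippocampal and oligodendrocyte lists, but not the cortical excitatory, precursor, astrocyte or deep layer lists. The erythroid score rests on 1 tested gene.

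For the other receptors, no line was called. Nr3c2 was highest in Kdm3b (35.4 ± 2.14 CPM, SD, n = 8) and lowest in Rasgef1a (32.2 ± 3.16 CPM; edgeR unadjusted p = 0.0243, adjusted p = 0.411). Pgr was highest in Ppp1ca (46.5 ± 2.76 CPM) and lowest in Gsg1l (43 ± 4.40 CPM; edgeR adjusted p = 0.269). Esr1 was highest in Gsg1l at 1.19 ± 0.328 CPM (edgeR unadjusted p = 0.034, adjusted p = 0.161) and lowest in Rasgef1a at 0.882 ± 0.224 CPM. Esr2 was highest in Gsg1l at 0.263 ± 0.097 CPM and lowest in Kdm3b at 0.124 ± 0.089 CPM, the line with the shallow library. In Pcdh20 all 8 mice had Esr2 below the median of the other lines, at 0.133 ± 0.047 CPM or 1 to 6 reads (edgeR unadjusted p = 0.0265, adjusted p = 1). The share of all genes called against the other lines was 10.4% in Gsg1l, 0.165% in Dach1, 0.108% in Rasgef1a and 0.0445% in Rgs9. It was 0.0318% in Morf4l1, 0.0127% in each of Ece2 and Pcdh20, 0.00636% in Arpp19 and 0 in Hrk, Kdm3b, Ppp1ca and Zswim6.

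Of 13 chaperones that hold or mature the receptors, 1 was higher in females and 2 differed between lines, where 4.07% and 9.61% of all genes did. Bag1, a cochaperone, was at 69.1 ± 3.66 CPM in females and 66.8 ± 4.07 CPM in males (log2 difference 0.048 ± 0.014 SE, edgeR adjusted p = 0.0184). Fkbp5, a cochaperone that glucocorticoids induce, differed between lines (F = 2.72, adjusted p = 0.0384), from 23.3 ± 1.89 CPM in Kdm3b to 32 ± 12.5 CPM in Rasgef1a (SD, n = 8). Of the 3 libraries against their label, 2 are from Rasgef1a. Without those 3 the line call of Fkbp5 was lost (adjusted p = 0.0521), as it was on plate 1 alone (adjusted p = 0.0743). Its sex difference was -0.13 ± 0.04 (log2, SE), with males higher in 13 of 13 lines, and missed the threshold (adjusted p = 0.0557), while without the 3 libraries it passed (adjusted p = 0.0474).

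Of 16 coregulators, which link receptors to the transcription machinery, 1 was lower in females and 1 differed between lines. Over all genes 4.5% were lower in females and 9.61% differed between lines. Carm1, an arginine methyltransferase, was at 83.5 ± 2.54 CPM in females and 85.0 ± 2.05 CPM in males (log2 difference -0.027 ± 0.008 SE, edgeR adjusted p = 0.0329). This call was lost on plate 1 alone (adjusted p = 0.0783) and with no filter on low counts (adjusted p = 0.0626). Ncor1, a corepressor, differed between lines (F = 3.52, adjusted p = 0.00543), from 311 ± 8.45 CPM in Tbc1d8 to 339 ± 9.58 CPM in Kdm3b. The median log2 sex difference over the list was -0.014, and over all genes it was 0.

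Of 24 listed enzymes and carriers of steroids 18 were tested, with 2 higher and 2 lower in females and 0 called between lines in edgeR. Of all genes, 4.07% were higher and 4.5% lower. The number higher was 2 in each of the 4 alternatives run for the lists, while the number lower was 2 with RLE in place of TMM library scaling, 1 with no filter on low counts or without the 3 libraries, and 0 on plate 1 alone. Cyp11a1, which starts steroid synthesis from cholesterol, was at 4.55 ± 0.808 CPM in females and 3.93 ± 0.654 CPM in males (log2 difference 0.22 ± 0.05 SE, adjusted p = 0.000527, higher in 12 of 13 lines). Hsd11b1, which regenerates active glucocorticoid, was at 19.3 ± 2.32 CPM in females and 20.9 ± 2.15 CPM in males (log2 difference -0.12 ± 0.03 SE, adjusted p = 0.0106). On plate 1 alone the Hsd11b1 difference missed the threshold (adjusted p = 0.053). Aromatase (Cyp19a1) and Hsd11b2 did not pass the filter on low counts. Of 8 membrane progestin and oestrogen receptors, 1 was higher in females, 0 were lower and 1 differed between lines. Over all genes the shares were 4.07%, 4.5% and 9.61%. Paqr7 was the 1 higher in females (88.1 ± 5.91 against 84.2 ± 5.57 CPM, edgeR adjusted p = 0.0169). Paqr9 differed between lines (F = 5.39, adjusted p = 4.3e-05), from 25.6 ± 2.60 CPM in Gsg1l to 32.1 ± 1.73 CPM in Kdm3b.

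Genes that the receptors induce in other tissues were also read. Of 20 glucocorticoid targets 0 were higher and 1 was lower in females, and 4 differed between lines, against 9.61% of all genes. The 4 fell to 2 on plate 1 alone and to 2 without the 3 libraries against their label. The 1 lower was Lcn2, at 0.046 ± 0.060 CPM in females and 0.143 ± 0.430 CPM in males, a level of a few reads with 1 sex more spread than the other, and its call was lost with no filter (edgeR adjusted p = 0.0594). Nfkbia, an inhibitor of NF-kappaB, ran from 13.1 ± 1.36 CPM in Kdm3b to 18.6 ± 3.59 CPM in Tbc1d8 (F = 2.87, edgeR adjusted p = 0.027), and missed the threshold on plate 1 alone (adjusted p = 0.0591). Of 11 oestrogen targets tested 2 were higher and 0 lower in females, and 2 differed between lines. For both target lists the shares over all genes were 4.07%, 4.5% and 9.61%. The oestrogen list includes Pgr itself and Nrip1, which is also on the coregulator list. Greb1 was at 2.28 ± 0.788 CPM in females and 1.92 ± 0.603 CPM in males (log2 difference 0.24 ± 0.07 SE, adjusted p = 0.0105, higher in 12 of 13 lines). Cited1 was at 1.445 ± 0.214 and 1.246 ± 0.291 CPM (log2 difference 0.22 ± 0.06 SE, adjusted p = 0.00471, higher in 13 of 13 lines). Greb1 also differed between lines (F = 7.68, adjusted p = 1.34e-07), from 1.56 ± 0.495 CPM in Rgs9 to 3.66 ± 1.17 CPM in Dach1. Oxtr, the oxytocin receptor, ran from 6.18 ± 1.05 CPM in Rasgef1a to 8.36 ± 0.939 CPM in Tbc1d8 (F = 2.82, adjusted p = 0.0311).

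Of 32 other nuclear receptors tested 3 were higher and 5 lower in females, and 5 differed between lines. Over all genes the shares were 4.07%, 4.5% and 9.61%. With no filter on low counts 1 was higher and 3 were lower, and on plate 1 alone 3 and 3. Thra was at 410 ± 26.2 CPM in females and 440 ± 25.9 CPM in males (log2 difference -0.10 ± 0.01 SE, edgeR adjusted p = 6.8e-08, with males higher in 13 of 13 lines). Rxra, the partner of many nuclear receptors, was at 37.2 ± 1.88 and 38.9 ± 2.37 CPM (adjusted p = 0.00534). Rora differed between lines (F = 4.66, adjusted p = 0.000283), from 165 ± 9.90 CPM in Tbc1d8 to 192 ± 5.02 CPM in Morf4l1. Over these 7 lists the counts of genes lower in females added to 9, and to 5 on plate 1 alone or 4 with no filter on low counts. In the 4 alternatives run for the lists, 7 to 9 genes were higher in females and 4 to 9 were lower.

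From mouse to mouse, the 3 abundant receptors varied together. Deviations of log2 CPM from the mean of the same line and sex gave Pearson r = 0.46 between Nr3c1 and Pgr over 52 females and 52 males (two-sided permutation test, p = 0.00044, adjusted p over 10 pairs = 0.0044; Spearman rho = 0.353, adjusted p = 0.0089). Without the 2 mice farthest from the median of Nr3c1, r was 0.364. Nr3c2 and Pgr had r = 0.35 (permutation, adjusted p = 0.0185; rho = 0.361, adjusted p = 0.0089). Nr3c1 and Nr3c2 had r = 0.332 (permutation, adjusted p = 0.0301), while rho was 0.267 and missed the threshold (adjusted p = 0.0741). On plate 1 alone these 3 values were 0.367, 0.291 and 0.294 and none passed (permutation, adjusted p = 0.0611, 0.0701 and 0.0701). Plate 2 holds too few libraries for a value of its own. How often other pairs of genes of like level reach such values was not computed.

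**Figure D4:**
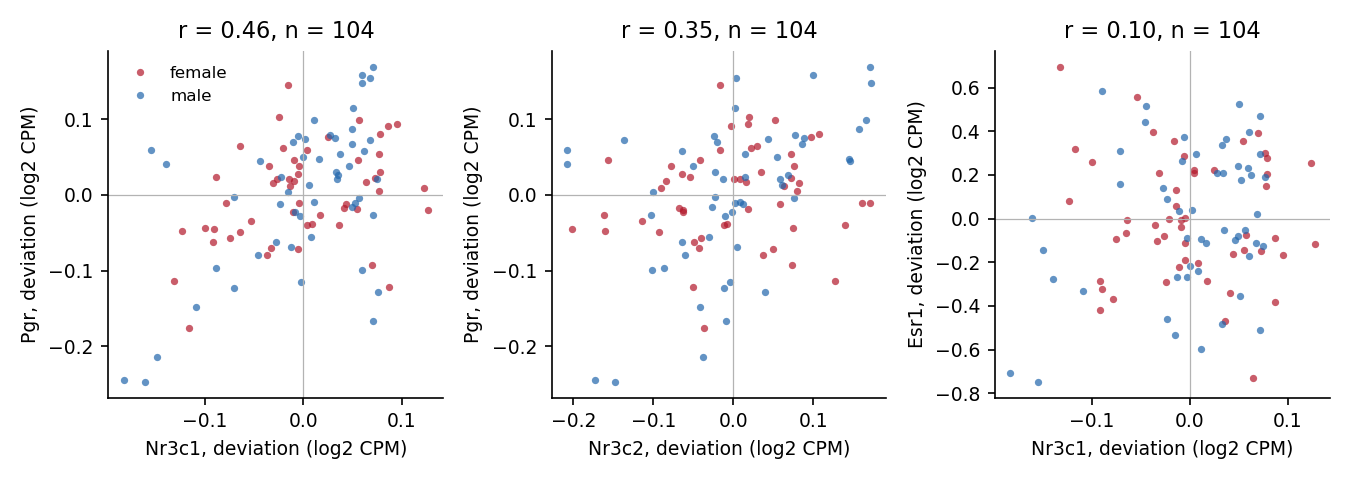
Deviations of log2 CPM from the mean of the same line and sex, with a point for each mouse coloured by sex, for Nr3c1 and Pgr, Nr3c2 and Pgr, and Nr3c1 and Esr1. Points of the first pair rise together (r = 0.46) and those of Nr3c1 and Esr1 show little relation (r = 0.10).

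Esr1 and Esr2 were related to no other receptor past the threshold. Esr1 had r = 0.275 with Nr3c2 (permutation, p = 0.0237, adjusted p = 0.0594), 0.099 with Nr3c1 and 0.035 with Pgr. Between Esr1 and Esr2 r was -0.12 (adjusted p = 0.598). All 4 pairs that include Esr2 had r between -0.12 and 0.086. With 0 to 13 reads a library, counting error limits what Esr2 can show here.

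The abundant receptors also varied with scores of cell type and pathway lists, each the mean log2 CPM of the list without the receptor itself. Of 115 relations 13 passed (two-sided permutation, adjusted over all 115), of which 3 were positive, and 0 involved Esr1 or Esr2. The share of other genes of like level that would pass with these lists was not computed, so the relations are not shown to be particular to the receptors. Astrocyte markers were lower where Nr3c1 (r = -0.46), Nr3c2 (r = -0.41) and Pgr (r = -0.45) were higher (permutation, adjusted p = 0.00115, 0.00613 and 0.00115). Summed astrocyte markers ran from 5995 to 8283 CPM over the libraries. Nr3c1 alone among the receptors passed with deep layer neuron markers (r = 0.462, adjusted p = 0.00161) and coregulators (r = 0.423, adjusted p = 0.00613), and cortical excitatory markers reached r = 0.314 (adjusted p = 0.048). Whether these relations differ between receptors was not tested.

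Glucocorticoid targets were lower in mice with more Nr3c1 (r = -0.47, permutation adjusted p = 0.00115) and more Nr3c2 (r = -0.41, adjusted p = 0.00613). Nr3c2 had its strongest relation with the chaperones (r = -0.53, adjusted p = 0.00115). It also passed with the membrane receptors (r = -0.31, adjusted p = 0.048). Pgr was lower where microglia (r = -0.37, adjusted p = 0.00613), endothelium (r = -0.33, adjusted p = 0.031) and mural cell markers (r = -0.28, adjusted p = 0.048) were higher. Fkbp5 is on both the chaperone and the glucocorticoid target list. All values of a mouse come from 1 library, so its depth and scaling are shared by both sides of each relation.

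**Figure D5:**
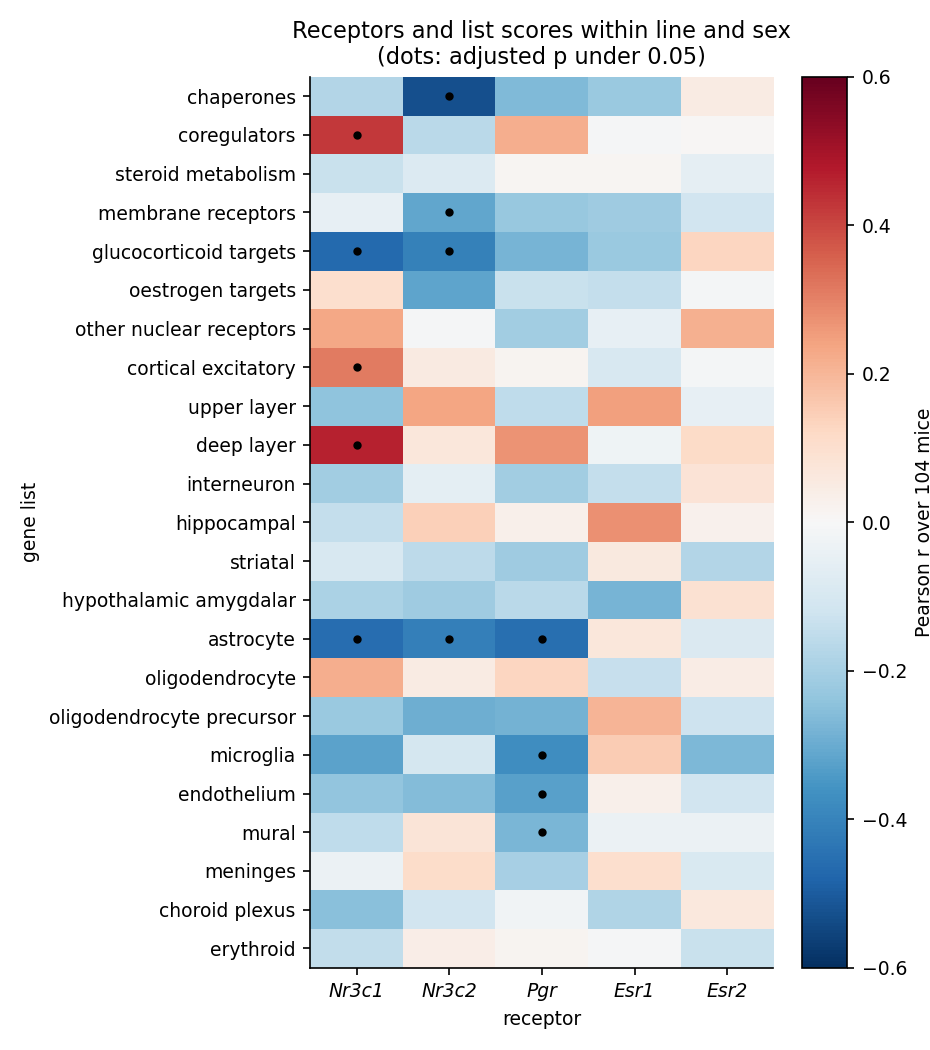
Pearson r over all mice between each receptor (columns) and the score of each of 23 gene lists (rows), from deviations within line and sex, with dots where the adjusted p was under 0.05. The astrocyte row is below 0 for Nr3c1, Nr3c2 and Pgr, and the columns of Esr1 and Esr2 hold no dot.

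The genes most like each receptor across mice were taken, as a description, from the same deviations, leaving out genes whose mean log2 CPM was under 1. For Nr3c1 they were Lrrtm2 (r = 0.671), a synaptic adhesion protein, Prkaa2 (0.667), a catalytic subunit of AMP-activated kinase, Ncam2 (0.661), A830010M20Rik (0.645) and Ppp1r9a (0.64). Its lowest were Gstm1 (-0.66), a glutathione transferase, and Acacb (-0.64), an acetyl-CoA carboxylase. For Nr3c2 the most alike were Zkscan16 (0.734), Creg2 (0.714), Sytl2 (0.707), Tecpr2 (0.702) and Pkia (0.697), with Csdc2 (-0.72) and Znrf1 (-0.71) at the other end. Pgr was most like Scai (0.7), Rasal2 (0.664), Adam22 (0.663), Srpk2 (0.66) and Erbb4 (0.651), the last a neuregulin receptor. Its lowest were Ppp1r1a (-0.69) and Dlg4 (-0.67), the latter encoding the postsynaptic scaffold PSD-95.

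The oestrogen receptors had lower values of r to their nearest genes. Esr1 was most like Cntn5 (r = 0.504), a neural adhesion protein, Pcdh19 (0.449), Rfx3 (0.444), Chd3 (0.433) and Ngb (0.423), which encodes neuroglobin. Its lowest were Map7d2 and Paqr4 (-0.43 each). Esr2 reached 0.441 with Irs1, 0.429 with Eif4e3, 0.377 with Taf5, 0.373 with 5730508B09Rik and 0.358 with Dlx2. Its lowest were E030003E18Rik (-0.42) and Bcdin3d (-0.36). Between 12825 and 12826 genes were compared for each receptor, so the highest values are picked from many.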

How the data were processed

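RNA of 104 cortex libraries was measured by RNA sequencing. Per the submitters' processing notes, HTSeq 0.10.0, STAR 2.7.3a and the genome builds mm10 and GRCm38 were used. The counting mode and strand setting are not given in the sources used here. The deposited counts are whole reads per RefSeq gene symbol or per Ensembl gene, not normalized by the authors. The deposited FPKM values were scaled by gene length and depth by the authors. The Ensembl count table ended inside 1 line, which was left out, and 19563 of its genes were used.

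RefSeq counts were fitted with edgeR 4.0.16 (quasi-likelihood, TMM, filterByExpr by line and sex with a minimum count of 10) in R 4.3.3, with line and sex as terms. That kept 15723 genes, over which p-values were adjusted by Benjamini-Hochberg and called under 0.05. SEs were derived from each log2 difference and its F. DESeq2 1.42.0 and limma 3.58.1 were alternatives. Relations and spreads used log2 CPM with a prior count of 2, centred within line and sex, and 100000 permutations. Scripts were tested on simulated data.

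Line was read from a label tagged as batch, since the design text gives 8 mice per line. Column names were matched to the library names in the labels. The members and lists were chosen with earlier results of these data known. Named genes were the receptors, each receptor's called lines or else its highest and lowest line, up to 4 genes per pathway list by smallest p for sex and line, and per receptor the 5 genes most and 2 least alike. Not every gene that rule allows is printed. Sts and Drd1 were not analysed here. Replicate numbers did not pair the sexes.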

Additional observations from a re-analysis of the deposited data

Results flagged for a closer look

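Within groups of 4 mice of the same line and sex, 14 of 130 combinations of receptor and group held a library far from the other 3, by Dixon's criterion at 95%. Chance flags about 1 in 20 groups. Values are log2 CPM with a prior count of 2.

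Nr3c1 was low in Arpp19 male 4 (7.12, others 7.33 to 7.34), Gsg1l male 13 (7.09, others 7.31 to 7.35), Hrk male 17 (7.11, others 7.29 to 7.33) and Rasgef1a male 37 (7.13, others 7.32 to 7.36). It was high in Morf4l1 female 27 (7.39, others 7.35 to 7.36). Pgr was also low in Hrk male 17 (5.26, others 5.54 to 5.55) and was low in Tbc1d8 male 45 (5.31, others 5.41 to 5.42). Nr3c2 was low in Pcdh20 female 30 (4.88, others 5.13 to 5.16).

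Esr1 was high in Hrk male 19 (0.11, others -0.37 to -0.30) and in Kdm3b female 22 (0.88, others -0.16 to 0.018), where it rests on 6 reads of the shallowest library. It was low in Rasgef1a male 37 (-0.96, others -0.0010 to 0.088). Esr2 was low in Gsg1l male 14 (-2.85, others -1.40 to -1.31), Hrk male 19 (-3.84, 0 reads, others -1.83 to -1.61) and Pcdh20 female 31 (-3.24, 1 read, others -2.23 to -2.20).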

How the results depend on the processing

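The direction of the Esr1 sex difference was the same under every alternative run. It was 0.048 on log2(FPKM + 1) and 0.18 on log2(FPKM + 0.1), since a pseudocount shrinks differences of low genes, and 0.20 to 0.27 without 1 line. Leaving out 1 replicate gave 0.22 to 0.26 for Esr1. It lost its call without Ece2 (0.210, edgeR adjusted p = 0.059) and without Morf4l1 (0.203, adjusted p = 0.0686). Nr3c1 gained one without Dach1 (0.047). The Esr2 difference was -0.002 on plate 1 alone. Nr3c1 in Tbc1d8 gave -0.072 in females only and -0.091 on plate 1 only, neither past the threshold, and -0.13 to -0.10 without 1 replicate. With the median absolute deviation in place of the SD, the log2 ratio of female to male spread was 0.166 for Nr3c1 and 0.139 for Nr3c2, above 0 where the SD gave -0.054 and -0.12.

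On plate 1 only, r was 0.294 for Nr3c1 with Nr3c2, 0.367 for Nr3c1 with Pgr, 0.291 for Nr3c2 with Pgr, 0.276 for Nr3c1 with excitatory markers, -0.325 for Nr3c2 with membrane receptors and -0.301 for Pgr with mural markers, none past the threshold. Without the shallowest library the last 2 were -0.309 and -0.271 and did not pass either. On log2(FPKM + 0.1), Nr3c2 with Esr1 gave 0.284 and passed. The cause of these changes was not tested.

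Genes that differed between lines numbered 1511, and 1001 on plate 1, 152 in females only, 456 in males only, 901 without Gsg1l and 400 without Tbc1d8. Leaving out any 1 of the other 11 lines gave 1348 to 1697. The sex difference varied by line for 6 genes and for 1 without the 3 libraries against their label. Over the 7 lists, 9 genes were lower in females, 5 on plate 1 and 4 with no filter, while 7 to 9 were higher in the 4 alternatives. The strict filter removed Esr1 and Esr2, which gave no value there.

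Same-numbered females and males of a line correlated at -0.389 to 0.481 (median 0.0335), over 0.1 in 20 of 52 pairs, and 16 correlated best with their own number, so the numbers do not pair the mice. With the replicate number as a block, the Esr1 difference was 0.255 (adjusted p = 0.00652), 656 genes were higher and 703 lower in females, against 640 and 707, and no receptor's call changed.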
